A study of Homo sapiens with 12 samples.

Results

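Surface receptors of the TREM, LILR and C5a receptor kinds, with the TREM adaptor TYROBP and the lipopolysaccharide co-receptor CD14, were followed across 12 RNA-seq libraries of THP-1, an established human monocytic leukemia line. The set holds 10 genes of the 62914 entries in the gene tables, matched by symbol: TREM1, TREM2, TYROBP, LILRA2, LILRB1, LILRB2, LILRB4, C5AR1, FPR1 and CD14. They were selected on the expression changes measured in these same libraries, in all 3 treatments. Their levels and changes are therefore given as a description, with no p-value. Tests are kept for other genes of the same pathways, whose lists were also written with earlier results of these data known.

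The libraries form 4 groups of 3. One group received 3'-3'-cGAMP at 1 μg/mL for 8 h, a bacterial-type cyclic dinucleotide that binds the adaptor STING. The untreated group served as its control and as the zero dose of chlorquinaldol, a chlorinated hydroxyquinoline antiseptic. The remaining groups received chlorquinaldol at 20 μM or 50 μM for 8 h. The labels name no vehicle and no culture time for the untreated cells, and no separate cultures behind the replicates, so the spread given here may be technical. Libraries held 17620929 to 19222607 estimated counts, and log2 CPM correlated at 0.9856 to 0.9912 between libraries of a group and 0.9037 to 0.9764 between groups. All 3 treatments were compared with the same 3 untreated libraries.

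TREM1 and TREM2 are short-tailed activating receptors that signal through the ITAM motif of TYROBP (DAP12), which recruits the kinase SYK. TREM1 is known for amplifying inflammatory responses of monocytes and neutrophils, and TREM2 for lipid sensing in macrophages and microglia. LILRA2 is an activating receptor paired with the Fc receptor gamma chain, whereas LILRB1, LILRB2 and LILRB4 carry ITIM motifs that recruit phosphatases and restrain signalling. C5AR1 and FPR1 are G protein-coupled chemoattractant receptors for the complement fragment C5a and for formylated bacterial peptides. CD14 hands lipopolysaccharide to TLR4.

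The reference sequence before the start of 3 members that were higher with chlorquinaldol is shown first, because these 3 had the largest increases among the members at 20 μM. Each window is the 250 bases before a RefSeq gene start (GRCh38.p14), written 5′ to 3′ on the strand of the gene. Capitals mark matches to the motifs searched, on either strand. TREM1 lies on chromosome 6 (chr6:41286683-41286932, minus strand), C5AR1 on chromosome 19 (chr19:47309611-47309860, plus strand) and CD14 on chromosome 5 (chr5:140633176-140633425, minus strand).
TREM1: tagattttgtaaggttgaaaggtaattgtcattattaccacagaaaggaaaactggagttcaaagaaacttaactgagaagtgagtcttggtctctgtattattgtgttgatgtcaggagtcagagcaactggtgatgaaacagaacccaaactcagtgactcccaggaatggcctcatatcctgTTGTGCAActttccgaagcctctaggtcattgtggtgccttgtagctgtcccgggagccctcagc
C5AR1: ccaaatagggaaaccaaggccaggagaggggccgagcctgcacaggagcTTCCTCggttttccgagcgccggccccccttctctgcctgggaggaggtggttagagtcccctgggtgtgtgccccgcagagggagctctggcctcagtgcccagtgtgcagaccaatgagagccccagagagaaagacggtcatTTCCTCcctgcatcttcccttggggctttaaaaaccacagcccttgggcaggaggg
CD14: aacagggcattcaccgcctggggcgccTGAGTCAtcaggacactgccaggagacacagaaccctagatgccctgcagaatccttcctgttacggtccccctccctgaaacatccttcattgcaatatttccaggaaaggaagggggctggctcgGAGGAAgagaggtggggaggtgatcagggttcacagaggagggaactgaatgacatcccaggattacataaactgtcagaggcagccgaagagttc

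The motifs searched were the PU.1 core GAGGAA, the AP-1 site TGANTCA, the interferon-stimulated response element (GAAA, any 2 bases, GAAA), the antioxidant response element TGACNNNGC and the C/EBP site TTNNGCAA. TREM1 held 1 C/EBP match, which 9.05% of 35116 promoter windows of this length also hold. C5AR1 held 2 PU.1 core matches, both as TTCCTC on the strand shown, and 23.6% of windows hold that core. CD14 held the PU.1 core and an AP-1 match, and 6.57% of windows hold the AP-1 site. Among the other members TREM2 had a C/EBP match, TYROBP and LILRB4 had the PU.1 core, and 1 of 3 LILRB1 starts had an AP-1 match. No window of LILRB2, LILRA2 or FPR1 held any of the 5 motifs, and the response element for interferon (3.02% of windows) and that for antioxidants (10.9%) were found in no member. The matches shown do not overlap each other and are a description of letters, not of binding.

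LILRB2 and LILRA2, on chromosome 19, are shown as a second pair because these paralogs differed from untreated cells in opposite directions with chlorquinaldol while 1 pair of their start windows is much alike. LILRB2 has 3 such windows and LILRA2 has 2, and the pair shown is the most alike of the 6 possible, the others being identical at 47.2% to 66.8% of bases. In a global alignment of this pair 204 of 250 bases were identical (81.6%), and capitals mark the 46 that differ, runs at the ends included. The windows are chr19:54280629-54280878 on the minus strand for LILRB2 and chr19:54573540-54573789 on the plus strand for LILRA2. LILRB2 and LILRB1 have a pair of further windows that are alike at 228 of 250 bases (91.2%), not shown here. All 5 windows printed lie wholly or in part inside the GENCODE 29 span of their gene, whose outermost start is upstream of the RefSeq start used.
LILRB2: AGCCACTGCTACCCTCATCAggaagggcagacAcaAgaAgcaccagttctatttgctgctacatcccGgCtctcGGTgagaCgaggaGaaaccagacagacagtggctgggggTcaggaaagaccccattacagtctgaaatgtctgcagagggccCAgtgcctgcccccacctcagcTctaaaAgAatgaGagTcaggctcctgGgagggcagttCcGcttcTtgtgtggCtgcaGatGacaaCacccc
LILRA2: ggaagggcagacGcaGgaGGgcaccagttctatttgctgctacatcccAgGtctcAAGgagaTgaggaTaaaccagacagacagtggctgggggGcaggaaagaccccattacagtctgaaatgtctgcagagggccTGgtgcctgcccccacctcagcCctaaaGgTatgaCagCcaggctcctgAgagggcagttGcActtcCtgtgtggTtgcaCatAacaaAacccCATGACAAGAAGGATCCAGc

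Levels below are CPM, read counts scaled to library depth with TMM factors, listed by replicate number. Changes are log2 values from the edgeR fit with their standard error (SE). Groups are called apart where the lowest library of one lies above the highest library of the other. All 10 members passed the filter on low counts.

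TREM1 had the largest difference of any member, and it was with chlorquinaldol. It had 6.31, 6.46 and 6.97 CPM in cGAMP-treated cells and 7.39, 7.43 and 8.49 CPM in untreated cells. At 20 μM chlorquinaldol it had 68.6, 59.0 and 47.7 CPM, and at 50 μM 267, 241 and 205 CPM. Every library at 20 μM lay above every untreated library, and every library at 50 μM above every library at 20 μM. The log2 change from untreated was 2.91 (SE 0.14, 7.52-fold) at 20 μM and 4.94 (SE 0.14, 30.6-fold) at 50 μM, and the step between the doses was 2.02 (SE 0.12). With cGAMP the groups were apart and lower by a small margin, at −0.24 (SE 0.16). That direction depended on the unit: the ratio of mean FPKM was 0.25 on the log2 scale, because the CPM carried per FPKM ran from 0.755 to 0.848 in cGAMP libraries and from 0.945 to 1.33 in untreated ones.

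TREM2, which shares the adaptor with TREM1, overlapped between groups in every comparison. It had 20.7, 26.3 and 25.9 CPM with cGAMP and 19.7, 23.2 and 23.3 CPM in untreated cells. The chlorquinaldol libraries had 15.6, 30.1 and 26.7 CPM at 20 μM and 33.7, 28.4 and 21.7 CPM at 50 μM. Its log2 changes were 0.14 with cGAMP, 0.13 at 20 μM, 0.34 at 50 μM and 0.21 between the doses (SE 0.19 each). The 20 μM libraries spread the most, with a coefficient of variation of 31.4%, and replicate 1 was the lowest TREM2 value of the 12 libraries.

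TYROBP, the adaptor itself, was higher in all 3 treated groups. It had 108, 125 and 122 CPM in cGAMP-treated cells against 74.3, 85.6 and 94.1 CPM in untreated cells, a log2 change of 0.48 (SE 0.10). At 20 μM chlorquinaldol it had 123, 133 and 110.0 CPM, and at 50 μM 158, 151 and 129 CPM. All 9 treated libraries lay above the untreated ones, with log2 changes of 0.53 at 20 μM and 0.79 at 50 μM (SE 0.10 each), while the dose groups overlapped each other.

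LILRA2, the activating member of the LILR family here, was lower with chlorquinaldol in step with dose. Untreated cells had 83.4, 76.2 and 77.7 CPM, cells at 20 μM had 45.1, 46.0 and 48.1 CPM, and cells at 50 μM had 15.8, 16.2 and 15.8 CPM. No library of one dose overlapped the next, and replicates at 50 μM differed by a coefficient of variation of 1.44%. The log2 change was −0.77 (SE 0.07, 1.70-fold lower) at 20 μM and −2.31 (SE 0.08, 4.97-fold lower) at 50 μM. In bulk libraries fewer cells with a transcript and less transcript per cell cannot be told apart. With cGAMP, LILRA2 had 70.2, 78.1 and 74.0 CPM, which overlapped the untreated libraries (log2 change −0.09, SE 0.07).

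**Figure D1:**
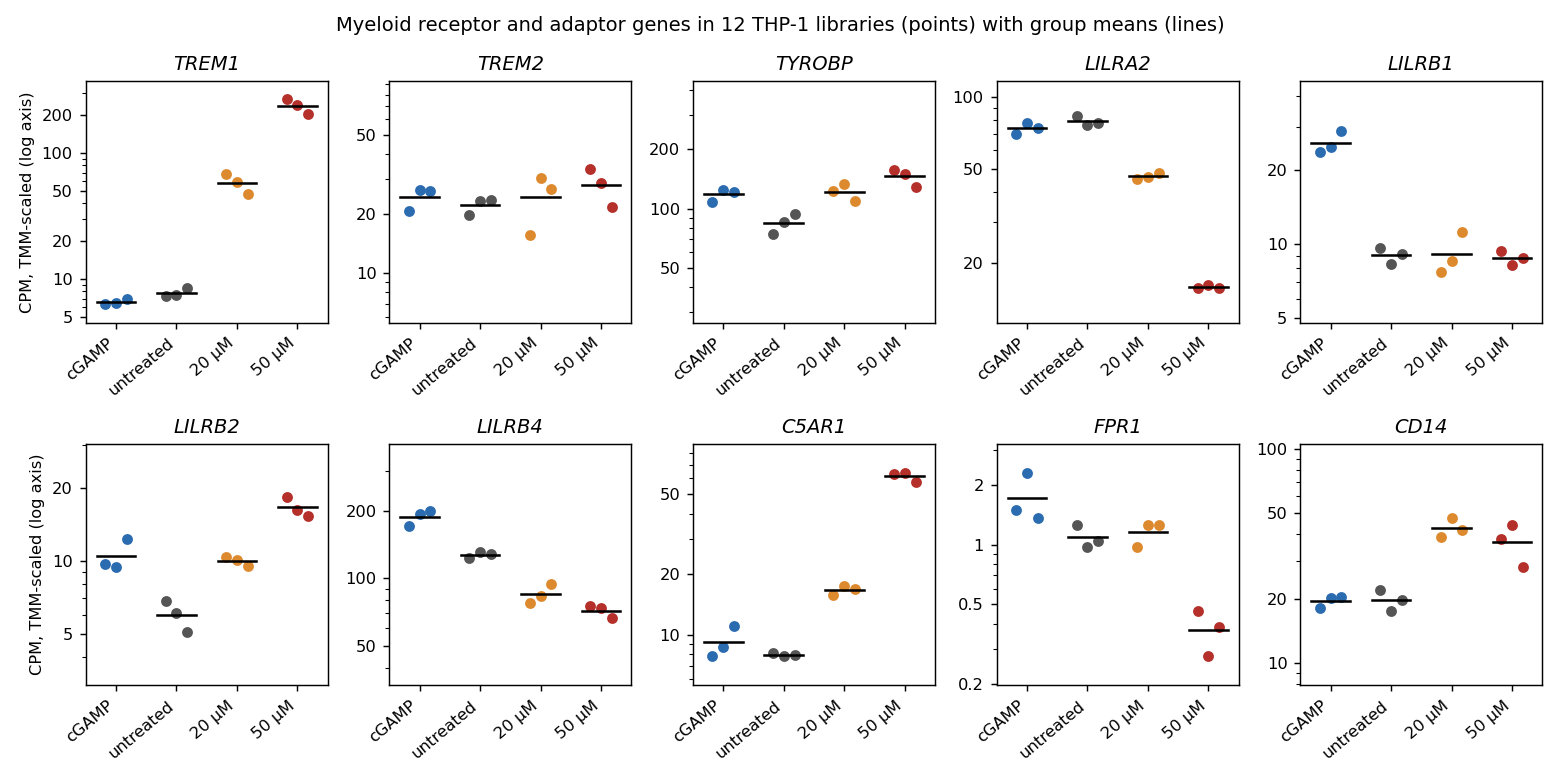
CPM after TMM scaling (log axis, own range per gene) of the 10 genes in cells given cGAMP, untreated cells and cells given 20 or 50 μM chlorquinaldol; points are libraries and lines are means of 3. TREM1 reaches 205 to 267 CPM at 50 μM while LILRA2 sits at 15.8 to 16.2 CPM there, and the 3 cGAMP libraries hold the highest LILRB1 values, 23.7 to 28.8 CPM.

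The inhibitory LILRB genes differed in their responses. LILRB1, a receptor for MHC class I, was higher with cGAMP: 23.7, 24.9 and 28.8 CPM, against 9.65, 8.35 and 9.11 CPM in untreated cells. This was the largest member change with cGAMP, at 1.51 on the log2 scale (SE 0.13, 2.85-fold). With chlorquinaldol LILRB1 had 7.70, 8.54 and 11.2 CPM at 20 μM and 9.39, 8.22 and 8.76 CPM at 50 μM, which overlapped the untreated libraries (0.02 and −0.04, SE 0.14 each). The 50 μM value depended on the unit, since the log2 ratio of mean FPKM was −0.50, with 2.88 CPM per FPKM at 50 μM and 2.12 in untreated cells.

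LILRB2, also an MHC class I receptor, was higher in all 3 treated groups. It had 9.73, 9.45 and 12.3 CPM with cGAMP against 6.83, 6.10 and 5.07 CPM in untreated cells (log2 change 0.80, SE 0.14). At 20 μM chlorquinaldol it had 10.4, 10.1 and 9.50 CPM, and at 50 μM 18.4, 16.2 and 15.3 CPM. The doses were apart from untreated cells and from each other, at 0.73 (SE 0.14) for 20 μM and 1.47 (SE 0.13, 2.76-fold) for 50 μM. Its change thus ran against that of LILRA2, whose sequence window is aligned with it above.

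LILRB4, the most abundant LILR member, was higher with cGAMP and lower with chlorquinaldol. It had 171, 193 and 200 CPM in cGAMP-treated cells, against 123, 131 and 129 CPM in untreated cells. Cells at 20 μM had 77.9, 83.1 and 94.3 CPM and cells at 50 μM 75.0, 74.0 and 66.5 CPM. All 4 groups were apart, with log2 changes of 0.56 with cGAMP, −0.59 at 20 μM and −0.83 at 50 μM (SE 0.09 each). The estimated count was fractional in 12 of 12 libraries for LILRA2, 11 for LILRB1, 10 for LILRB4 and 9 for LILRB2, against at most 1 for any other member. A fractional count means that some reads were divided between features, which features was not tested, and the levels of single LILR genes are uncertain by that share.

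C5AR1 was, like TREM1, higher at each dose of chlorquinaldol. It had 7.82, 8.65 and 11 CPM with cGAMP and 8.09, 7.84 and 7.92 CPM in untreated cells, which overlapped (log2 change 0.20, SE 0.12). At 20 μM chlorquinaldol it had 15.8, 17.5 and 16.9 CPM, and at 50 μM 63.0, 63.8 and 57.8 CPM. Neither dose overlapped the untreated libraries or the other dose. The change was 1.08 (SE 0.11, 2.11-fold) at 20 μM and 2.95 (SE 0.11, 7.74-fold) at 50 μM.

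FPR1 was close to the limit of what this depth can measure. It had 29, 43 and 25 counts in the cGAMP libraries against 25, 19 and 20 in the untreated ones, then 19, 22 and 25 at 20 μM and 8, 5 and 7 at 50 μM. In CPM this was 1.5, 2.3 and 1.36 with cGAMP against 1.26, 0.974 and 1.04 in untreated cells, a log2 change of 0.66 (SE 0.27). The 20 μM libraries overlapped the untreated ones, and the 50 μM libraries were apart below them at −1.53 (SE 0.34, 2.89-fold lower). Under other settings the 50 μM value ran from −1.56 to −0.61. The span of FPR1 overlaps FPR2 on the opposite strand, which averaged 1.05 CPM, and the strand setting of the counts is not given in the sources used here.

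CD14 was higher at both chlorquinaldol doses and overlapped untreated cells with cGAMP. It had 18.1, 20.1 and 20.4 CPM in cGAMP-treated cells and 22.0, 17.6 and 19.7 CPM in untreated cells. At 20 μM it had 38.7, 47.4 and 41.8 CPM, and at 50 μM 38.0, 44.3 and 28.0 CPM. The doses were apart from untreated cells, by 1.11 at 20 μM and 0.90 at 50 μM (SE 0.14 each), but overlapped each other. CD14 thus differed from TREM1 and C5AR1 in having its highest mean at the lower dose, though the step between doses (−0.21, SE 0.13) lay within the spread.

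**Figure D2:**
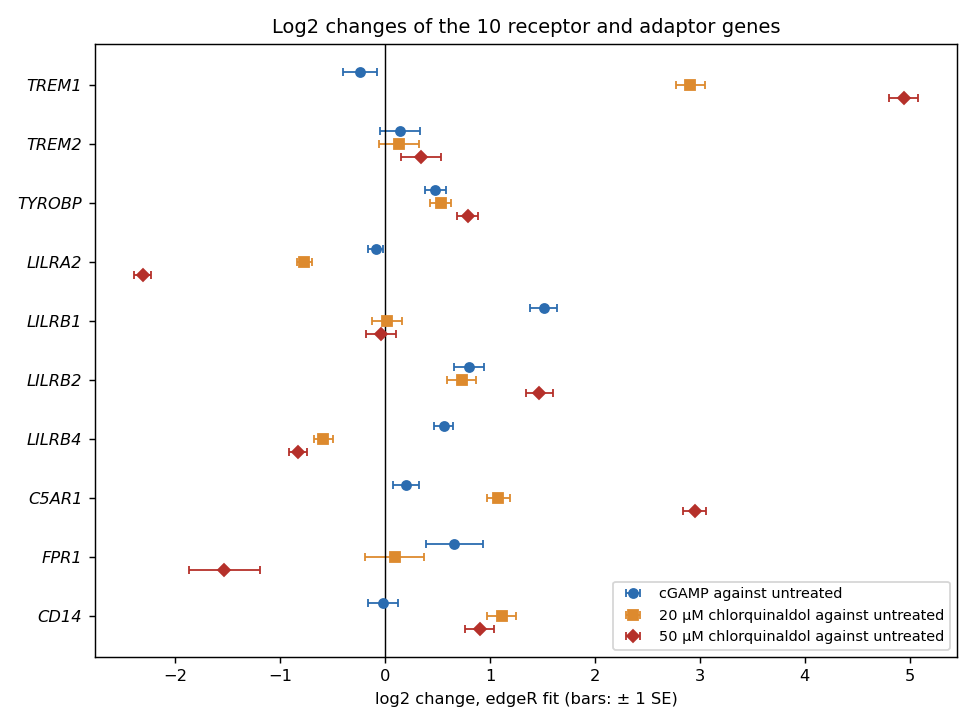
Log2 change with its SE (edgeR fit of all 12 libraries) of each of the 10 genes for cGAMP, 20 μM and 50 μM chlorquinaldol against untreated cells. TREM1 (4.94) and C5AR1 (2.95) reach furthest up at 50 μM and LILRA2 (−2.31) furthest down, while LILRB1 (1.51) leads with cGAMP.

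Counted over the 10 members, with cGAMP 5 were apart and higher, 1 was apart and lower and 4 overlapped the untreated libraries. Over all 16629 tested genes, 18.6% were apart and higher and 25.4% apart and lower in that comparison. At 20 μM chlorquinaldol 5 members were higher, 2 lower and 3 overlapping, beside 30.4% higher and 31.5% lower over all genes. At 50 μM 5 were higher, 3 lower and 2 overlapping, beside 33.8% higher and 36.8% lower. Between the doses 3 were higher at 50 μM, 3 lower and 4 overlapping, beside 22.1% and 22.8%. Since the members were chosen with these contrasts known, nothing is read from their counts. The median log2 change of the members was 0.34 with cGAMP, 0.33 at 20 μM and 0.56 at 50 μM, and that of all tested genes was −0.05, −0.00 and −0.03.

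Compared per length, as FPKM, the order of the receptors changed with chlorquinaldol. In untreated cells TYROBP was highest at 270.0 FPKM (SD 26.8), followed by LILRB4 at 83.5, LILRA2 at 48.7, TREM2 at 31.8, CD14 at 17.3 and TREM1 at 6.92 FPKM. LILRB1 at 4.32 and C5AR1 at 3.92 FPKM overlapped each other, and LILRB2 at 2.87 and FPR1 at 1.02 FPKM closed the row. With cGAMP the first 5 places were the same, and LILRB1 at 10.1 FPKM passed TREM1 at 8.24 FPKM. At 20 μM TREM1 stood second at 64.3 FPKM, overlapping LILRB4 at 54.2 FPKM.

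At 50 μM TYROBP stood at 419 FPKM (SD 32.7) and TREM1 second at 231 FPKM (SD 21.5), apart from all below it. LILRB4 at 43.1 FPKM overlapped TREM2 at 36.2, which overlapped CD14 at 29, which overlapped C5AR1 at 27.6 FPKM. LILRA2 held the seventh place at 10.4 FPKM, ahead of LILRB2 at 7.01, LILRB1 at 3.05 and FPR1 at 0.327 FPKM.

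Ratios taken within a library show how the balance of paired receptors differed. The TREM1 to TREM2 ratio of FPKM was 0.247 (SD 0.00979) with cGAMP and 0.22 (SD 0.0501) in untreated cells. At 20 μM its 3 values were 3.21, 1.61 and 1.38, and at 50 μM 5.88, 6.36 and 7.16, so the TREM1 level exceeded the TREM2 level in all 6 chlorquinaldol libraries and in none of the other 6. TREM1 came to 2.27% of the TYROBP level with cGAMP and 2.59% in untreated cells, then 16.4% at 20 μM and 55.2% (SD 1.63) at 50 μM. The adaptor transcript therefore still exceeded both TREM transcripts together, which came to 63.8% of it at 50 μM.

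On the LILR side, the summed FPKM of the 3 inhibitory members was 3.03 times that of LILRA2 with cGAMP (SD 0.274) and 1.87 times in untreated cells (SD 0.126). It was 1.96 times at 20 μM and 5.15 times at 50 μM (SD 0.549), where both sides were lower but LILRA2 more so. LILRB4 made up 89.3% of the inhibitory sum with cGAMP, 92.1% in untreated cells, 86.3% at 20 μM and 81.1% at 50 μM. The 4 LILR members together came to 182 FPKM with cGAMP and 139 FPKM in untreated cells, then 94.9 at 20 μM and 63.6 FPKM at 50 μM. The C5AR1 to FPR1 ratio was 2.90 with cGAMP, 3.87 in untreated cells, 7.69 at 20 μM and 89.1 at 50 μM, the last with a wide spread of 69.5 to 122 because FPR1 counts were so few.

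**Figure D3:**
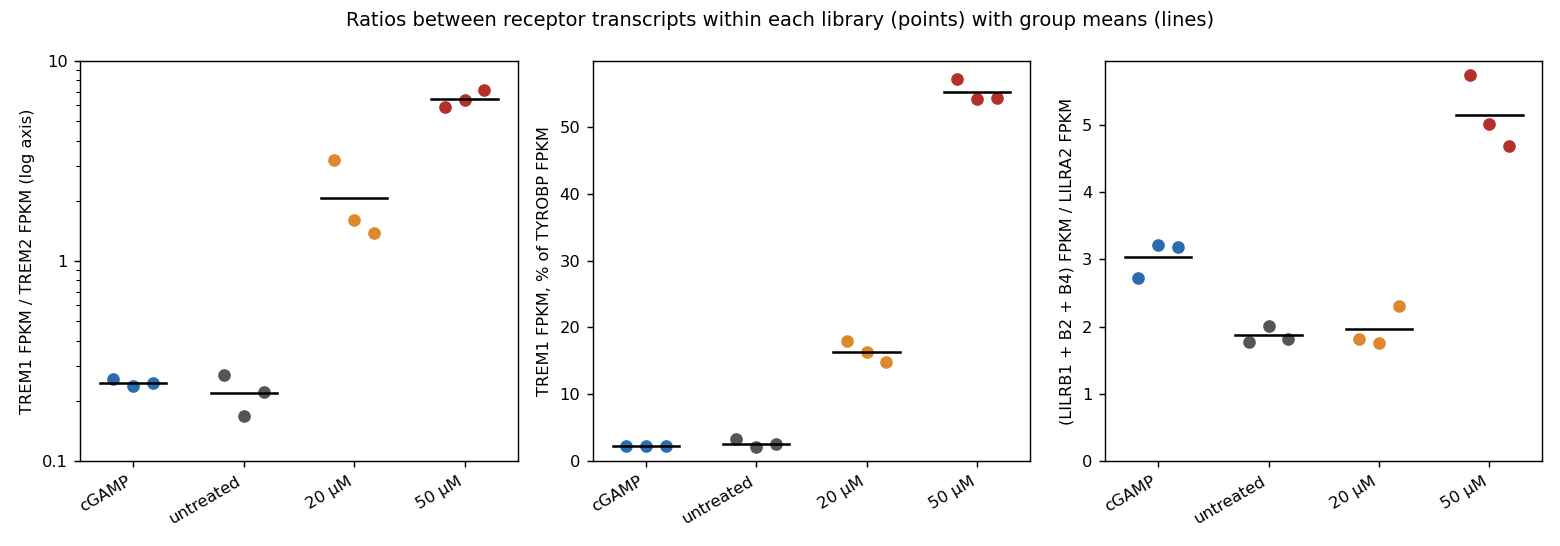
Ratios within each library (points) with group means (lines): TREM1 over TREM2 FPKM on a log axis, TREM1 as a percentage of TYROBP, and summed LILRB1, LILRB2 and LILRB4 over LILRA2. The TREM1 ratios are higher at 20 μM and higher again at 50 μM, whereas the LILR ratio averages 3.03 with cGAMP, 1.87 in untreated cells, 1.96 at 20 μM and 5.15 at 50 μM.

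The gene whose profile over the 12 libraries lay nearest to a member was found by Euclidean distance of log2 CPM centred on untreated cells, among 11740 genes. It was GPAT3 for TREM1 (distance 0.96), with log2 changes of 2.97 at 20 μM and 4.8 at 50 μM. MAP3K8 was nearest to C5AR1 (0.81), at 1.32 and 2.98. For LILRA2 it was PHACTR3 (0.59), at −0.71 and −2.17, and for LILRB1 it was SPTLC2 (0.53), at 1.38 with cGAMP. Other pairs were TYROBP with TREX1 (0.40), LILRB2 with DMXL1 (0.53), LILRB4 with ZNG1C (0.30) and CD14 with C12orf75 (0.49). FPR1 was too low for this measure.

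The wider pathways were read from 6 lists of 86 genes, of which 78 were tested, with edgeR's quasi-likelihood test adjusted by Benjamini-Hochberg over all 16629 genes. With cGAMP 19 of 78 list genes rose and 10 fell, at a median log2 change of 0.02. Over all genes 11.6% rose and 11.8% fell. At 20 μM chlorquinaldol 37 rose and 20 fell (27.1% and 28.0% of all genes), and at 50 μM 43 rose and 25 fell (32.2% and 34.7% of all genes). Between the doses 32 were higher at 50 μM and 15 lower (19.0% each way over all genes). The number falling with cGAMP was 6 without untreated replicate 1 and 6 without cGAMP replicate 2. Genes named below beyond the 3 with the smallest p per comparison and direction were chosen as examples after their values were seen.

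Paired receptors like the TREMs rose more often than they fell with chlorquinaldol. At 20 μM 7 of 13 tested rose and 3 fell (53.8% and 23.1%, beside 27.1% and 28.0% of all genes). At 50 μM 9 rose and 3 fell (69.2% and 23.1%, beside 32.2% and 34.7%). Median log2 changes were 0.44 and 1.18. The 3 that fell at 50 μM were CD300LF (log2 change −1.01), SIRPB1 (−0.91) and PILRB (−0.43). CD300A, an inhibitory receptor, averaged 241 ± 31.4 CPM at 20 μM and 310.0 ± 16.1 CPM at 50 μM, each set against 74.8 ± 9.81 CPM in untreated cells (SD, n = 3 each; adjusted p = 3.42e-09 and 8.45e-11). PILRA rose by 1.66 on the log2 scale between the doses, with 19.3, 17.0 and 16.0 CPM at 50 μM against 6.42, 5.18 and 4.90 CPM at 20 μM (adjusted p = 6.07e-08). With cGAMP none of these 13 rose (beside 11.6% of all genes) and 1 fell (7.69%, beside 11.8%). However, 1 rose without cGAMP replicate 1 and under 4 other settings, and 3 fell under 2 of those. The gene that fell was CD300LB, an activating receptor, at −0.89 (SE 0.23, adjusted p = 0.00944). That same gene rose with chlorquinaldol, by 1.10 at 20 μM and 2.01 at 50 μM (adjusted p = 8.23e-05 and 2.24e-08).

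Other genes of the LILR family and leukocyte receptor complex rose in part and fell in part with every treatment. This list also holds LAIR1, LAIR2 and FCAR beside the LILR genes. With cGAMP 4 of 8 tested rose and 1 fell (beside 11.6% and 11.8% of all genes), at a median log2 change of 0.81. The 4 were LILRA5, LILRA6, LILRB3 and LILRB5. The 1 that fell was FCAR, and no LILR gene of the list fell. At 20 μM 3 rose and 2 fell (beside 27.1% and 28.0% of all genes), and the median of the whole list was lower than untreated, at −0.38. The 2 that fell were LILRA1 (−0.76) and LAIR1 (−0.36). LILRA5 (3.23), LILRA6 (2.59) and LILRB3 (1.58) rose, while LILRB5 (−0.48), LAIR2 (−0.68) and FCAR (−0.39) were not called. At 50 μM 4 rose and 2 fell (beside 32.2% and 34.7% of all genes), at a median of 0.99. LILRB3, an ITIM receptor, had 8.59, 8.44 and 9.64 CPM with cGAMP against 2.51, 3.18 and 3.42 CPM in untreated cells (log2 change 1.55, adjusted p = 2.52e-06). It averaged 14.7 ± 1.11 CPM at 50 μM (adjusted p = 1.66e-09 against untreated). LILRA6, a near copy of LILRB3 with which it may share reads, averaged 3.05 ± 1.02 CPM with cGAMP and 6.07 ± 0.39 CPM at 50 μM, each against 0.682 ± 0.127 CPM in untreated cells (adjusted p = 1.02e-05 and 4.49e-09).

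Beside these, LILRA1 fell in the manner described for LILRA2, to 1.09 ± 0.256 CPM at 50 μM against 4.94 ± 0.40 CPM in untreated cells (log2 change −2.16, adjusted p = 6.36e-08). Whether it shares reads with LILRA2, whose counts were fractional in 12 of 12 libraries, was not tested. LILRA1 was the only tested gene of its list that fell between the doses in the edgeR fit (−1.40, adjusted p = 9.4e-05), and 2 did on log2(FPKM + 1) values. FCAR, the IgA receptor in the same gene complex, fell with cGAMP to 5.40 ± 0.957 CPM against 9.59 ± 2.42 CPM in untreated cells (adjusted p = 0.00233). It was higher at 50 μM, with 38.3, 30.1 and 32.2 CPM, than at 20 μM, with 7.55, 7.63 and 6.80 CPM (log2 change 2.19, adjusted p = 2.68e-08).

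Of 18 downstream adaptors, kinases and phosphatases, 7 rose and 6 fell at 20 μM (38.9% and 33.3%, beside 27.1% and 28.0% of all genes). At 50 μM 7 rose and 7 fell (38.9% each, beside 32.2% and 34.7%), which is near the share of all genes. With cGAMP 6 rose and 2 fell (33.3% and 11.1%, beside 11.6% and 11.8%). Of these 6, 3 rose without untreated replicate 2 or without cGAMP replicate 3, and 2 on unfiltered log2(FPKM + 1) values. Between the doses 6 were higher at 50 μM and 4 lower (33.3% and 22.2%, beside 19.0% each way). SYK, the kinase that binds phosphorylated ITAMs, did not pass the test in any comparison, with 321 ± 3.73 CPM at 50 μM against 346 ± 10.6 CPM in untreated cells (adjusted p = 0.20). MALT1, the protease of the CARD9 and BCL10 complex that links ITAM receptors to NF-κB, had the smallest p: 65.5, 59.7 and 71.3 CPM at 50 μM against 11.8, 11.1 and 10.7 CPM in untreated cells (log2 change 2.55, adjusted p = 5.32e-13). At 20 μM it had 47.7, 47.2 and 44.4 CPM (adjusted p = 3.31e-11).

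CARD9 itself fell at 20 μM, to 39.8 ± 7.46 CPM against 75.1 ± 3.67 CPM in untreated cells (log2 change −0.91, adjusted p = 1.67e-06). LAT2, a membrane scaffold adaptor, fell at 50 μM to 152 ± 8.82 CPM against 382 ± 1.92 CPM in untreated cells (adjusted p = 1.09e-10). FCER1G, the gamma chain that carries LILRA2 signals, changed direction between the doses: it averaged 351 ± 18.2 CPM in untreated cells, 621 ± 61.6 CPM at 20 μM and 254 ± 27.2 CPM at 50 μM (adjusted p = 1.24e-06 for 20 μM and 0.00029 for 50 μM). The lipid phosphatase INPP5D followed the same course, higher at 20 μM by 0.48 (adjusted p = 0.000155) and lower at 50 μM by −0.55 (adjusted p = 2.51e-05).

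Of 17 chemoattractant receptors and regulators, 8 rose and 7 fell at 50 μM (47.1% and 41.2%, beside 32.2% and 34.7% of all genes). With cGAMP 4 rose and 4 fell (23.5% each, beside 11.6% and 11.8%), of which 2 fell without untreated replicate 1, without cGAMP replicate 2 or without cGAMP replicate 3. C5AR2, the second C5a receptor, had 33.8, 41.5 and 27.7 CPM at 50 μM against 12.1, 9.85 and 10.2 CPM at 20 μM (log2 change 1.68, adjusted p = 6.91e-08). Against untreated cells it rose by 0.70 at 20 μM (adjusted p = 0.000674) and 2.38 at 50 μM (adjusted p = 1.51e-10). C3AR1, the receptor for C3a, averaged 10.7 ± 2.16 CPM with cGAMP, 15.2 ± 0.867 CPM at 20 μM and 31.3 ± 7.06 CPM at 50 μM, each against 4.55 ± 0.554 CPM in untreated cells (adjusted p = 7.61e-05, 2.73e-07 and 2.15e-10).

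Chemokine receptors differed from each other. CCR1 rose with cGAMP to 248, 242 and 287 CPM against 118, 125 and 142 CPM in untreated cells (adjusted p = 2.54e-06). CCR2, the receptor for the monocyte attractant CCL2, fell to 26.2 ± 0.64 CPM at 50 μM against 151 ± 5.84 CPM in untreated cells (log2 change −2.53, adjusted p = 4.07e-10). GRK2, the kinase that desensitises such receptors, fell to 117, 138 and 142 CPM at 50 μM against 609, 605 and 580.0 CPM in untreated cells (log2 change −2.17, adjusted p = 1.87e-12). The scaffold ARRB2 rose there to 99.7 ± 11.5 CPM against 31.5 ± 0.871 CPM (adjusted p = 1.77e-10), and ARRB1 fell with cGAMP to 61.8 ± 5.03 CPM against 92.1 ± 1.94 CPM (adjusted p = 0.000216).

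The partners of CD14 rose more often than they fell with chlorquinaldol. At each dose 8 of 11 tested rose (72.7%, beside 27.1% of all genes at 20 μM and 32.2% at 50 μM). Median log2 changes were 0.59 for 20 μM and 1.47 for 50 μM. None fell at 20 μM (beside 28.0% of all genes) and 2 fell at 50 μM (18.2%, beside 34.7%). Of these 2, none fell without 50 μM replicate 1, and 1 did without 50 μM replicate 2, 50 μM replicate 3 or untreated replicate 3. TLR4 averaged 29.7 ± 3.53 CPM at 20 μM and 54.6 ± 3.82 CPM at 50 μM, each against 19.7 ± 2.10 CPM in untreated cells (adjusted p = 0.00011 and 9.29e-10). LY96 (MD-2), which TLR4 needs to bind lipopolysaccharide, averaged 5 ± 0.265 CPM at 20 μM and 6.72 ± 0.544 CPM at 50 μM, each against 0.716 ± 0.143 CPM in untreated cells (adjusted p = 5.62e-08 and 2.31e-09).

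With cGAMP the gene of this list with the smallest p was MYD88, the adaptor shared by most Toll-like receptors. It had 146, 150.0 and 168 CPM against 30.2, 26.7 and 27.3 CPM in untreated cells, a log2 change of 2.46 (SE 0.11, adjusted p = 1.48e-11). TLR4 and LY96 did not pass the test with cGAMP (log2 changes 0.06 and 0.61, adjusted p = 0.745 and 0.156). TLR6, a partner of TLR2, fell to 6.24 ± 1.26 CPM against 9.77 ± 0.596 CPM (adjusted p = 0.00195), a call that was lost on log2(FPKM + 1) values (adjusted p = 0.0523).

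Of 11 ligands and shedding enzymes, 5 rose and 4 fell at 20 μM (45.5% and 36.4%, beside 27.1% and 28.0% of all genes). At 50 μM 7 rose and 4 fell (63.6% and 36.4%, beside 32.2% and 34.7%), with 2 falling without 50 μM replicate 3. C5, the precursor of the C5AR1 ligand, fell to 3.42, 2.47 and 4 CPM at 50 μM against 25.1, 28.9 and 25.3 CPM in untreated cells (log2 change −3.0, adjusted p = 2.72e-11). ANXA1, whose peptides bind formyl peptide receptors, rose to 330.0, 372 and 406 CPM against 40.8, 48.4 and 49.3 CPM (log2 change 3.0, adjusted p = 2.74e-12). CLU, a secreted chaperone that binds TREM2, rose to 49.4, 44.7 and 34.1 CPM against 1.66, 1.43 and 2.17 CPM (log2 change 4.60, adjusted p = 3.54e-12). ADAM17, a protease that sheds surface receptors, averaged 131 ± 11.3 CPM at 50 μM against 42.2 ± 3.17 CPM in untreated cells (adjusted p = 4.13e-10).

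**Figure D4:**
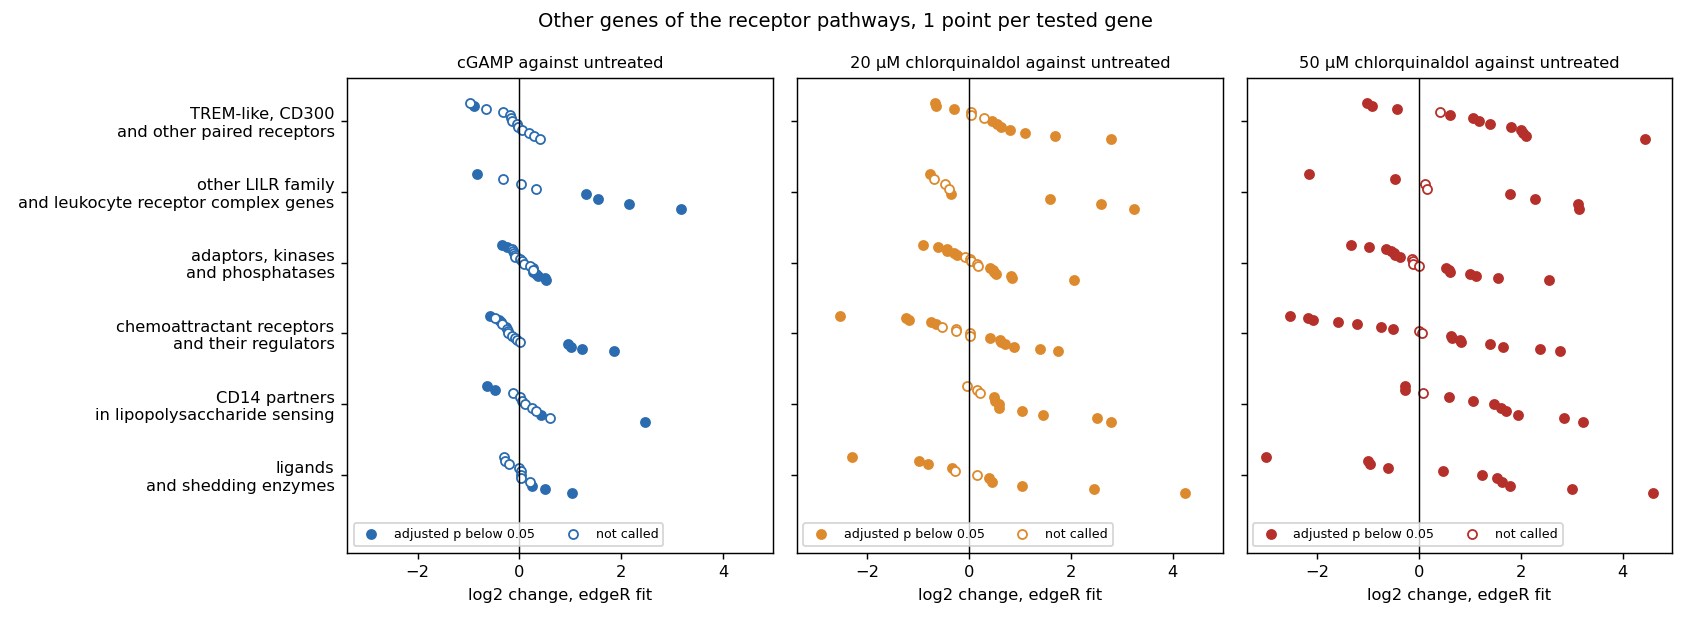
Log2 change (edgeR fit) of each tested gene of the 6 pathway lists for cGAMP, 20 μM and 50 μM chlorquinaldol against untreated cells; filled points have an adjusted p below 0.05. Filled points number 19 higher and 10 lower with cGAMP, 37 and 20 at 20 μM, and 43 and 25 at 50 μM.

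The monocytic label was checked against markers. All 8 monocyte markers averaged at least 1 FPKM, and their summed level was 943 to 998 FPKM with cGAMP and 925 to 928 FPKM in untreated cells, then 691 to 746 FPKM at 20 μM and 715 to 796 FPKM at 50 μM. The lower sums with chlorquinaldol rest on LYZ (lysozyme), which averaged 400 FPKM in untreated cells, 203 FPKM at 20 μM and 162 FPKM at 50 μM. A sum without LYZ was taken after the values were seen. The other 7 came to 522 to 594 FPKM with cGAMP and 514 to 534 FPKM in untreated cells. At 20 μM they came to 507 to 536 FPKM, and at 50 μM to 548 to 633 FPKM. The 50 μM libraries then lay above the untreated and 20 μM ones but overlapped those with cGAMP. ITGAM averaged 58.2 FPKM at 50 μM against 16.8 FPKM in untreated cells, CSF1R 84.1 against 35.7 FPKM and SPI1 191 against 165 FPKM. MPEG1 was lower there, at 4.09 against 12.1 FPKM, as were CD4 (79.1 against 105 FPKM) and CD33 (44.1 against 51.2 FPKM). CD68 was nearly level, at 141 against 140 FPKM. The summed level of 5 neutrophil markers was 408 to 491 FPKM with cGAMP and 407 to 472 FPKM in untreated cells, then 179 to 193 at 20 μM and 117 to 138 FPKM at 50 μM. Most of it was ELANE, a granule protease of immature myeloid cells. CSF3R averaged 53.9 FPKM in untreated cells, 27.0 FPKM at 20 μM and 23.1 FPKM at 50 μM. CXCR2 averaged 14.0, 6.99 and 3.36 FPKM in the same groups. FCGR3B and CEACAM8 stayed at or below 0.173 FPKM on average in each group. Of T and NK markers 1 of 6 (NKG7) reached 1 FPKM, and the B cell marker MS4A1 was listed at 0 throughout. None of 4 dendritic, 3 epithelial or 3 erythroid markers reached 1 FPKM. These sums moved with chlorquinaldol, and their part in the receptor changes was not tested.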

How the data were processed

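Gene-level tables of estimated counts and of FPKM for 12 libraries were used. The authors made the estimated counts and the FPKM values with RSEM against GRCh38 and then deposited them, per the submitters' processing notes. Those notes also name DESeq2 1.26.0, for tests not used here. RNA was selected with oligo(dT) and run on a DNBSEQ instrument, per the labels. RSEM version, annotation release and strand setting are not given in the sources used here.

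Deposited estimated counts were not whole in 42.3% of values above 0 and were rounded. The 326 unannotated entries, with 0.182% to 0.29% of counts per library, were left out of library sizes and tests. Low genes were removed by filterByExpr at its minimum count of 10. TMM factors set the scale, and edgeR 4.0.16 in R 4.3.3 fitted all 12 libraries as 4 groups. Adjusted p-values are two-sided quasi-likelihood p-values after Benjamini-Hochberg correction over 16629 genes, called below 0.05. The fit had 8 residual and 9 prior degrees of freedom. Changes are relative to the bulk of genes, so one in total RNA is not seen. The script was tested on simulated data.

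The members and lists were chosen with earlier results of these data known. Members are all named. Of list genes, the 3 with the smallest adjusted p per comparison and direction are named, if at 5 CPM or more in the higher group with groups apart, as are genes that alone are called in their family. LILRA3 was not matched by symbol. A marker and a gene that the naming rule would bring in are not reported here. Promoter windows come from RefSeq tables (GRCh38.p14) and matched all 10 members. Spans come from GENCODE 29.

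Results were recomputed with upper-quartile and with RLE factors, with DESeq2 1.42.0, without the count filter, with a replicate block, in fits of the compared groups alone, with limma 3.58.1 on log2(FPKM + 1) and log2(FPKM + 0.1), the former also without a filter, and with each library left out once.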

Additional observations from a re-analysis of the deposited data

How the results depend on the processing

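Of 240 recomputed counts of called genes over all lists or all genes, 233 stayed within 1.5 times the value reported. Of the 7 exceptions 5 came with limma on log2(FPKM + 1) without a filter on low values, which called 18 list genes with cGAMP against 29 in the edgeR fit, 12 higher against 19, 6 lower against 10, and 2038 of all genes against 3879, and which called 20 list genes higher between the doses against 32. Leaving out 1 library gave 6 to 8 list genes lower with cGAMP, where 10 were reported. Counts of single lists were less stable: 74 of 720 moved by more than 1.5 times, 31 of 180 with cGAMP, 2 at 20 μM, 10 at 50 μM and 31 between the doses. Among paired receptors with cGAMP, 1 rose with DESeq2, RLE factors, no count filter or only the groups compared, where 0 was reported, and 3 fell with the last 2 of these, where 1 was reported. Of 1229 recomputed tests of named list genes, 37 lost the call and none reversed. CD300LB with cGAMP and C5AR2 at 20 μM were lost only with limma on unfiltered FPKM (adjusted p = 0.0702 and 0.0682). Of 600 recomputed member changes, 538 moved by less than 1 SD between replicates. Signs that depended on the setting were those of TREM1 with cGAMP (−0.28 to 0.26), CD14 with cGAMP, LILRB1 with either dose and between them, and TREM2 at 20 μM and between the doses. No shared effect of replicate number was seen, as deviations of the 18 same-numbered pairs correlated at −0.113 to 0.067. Such values cannot show whether the libraries were paired by design, which the labels do not say. With the replicate block the list genes called were 26 with cGAMP, 58 at 20 μM, 68 at 50 μM and 48 between the doses. At 17620929 counts or more per library FPR1 rests on 5 to 43 counts, and its change is the least certain.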

Other observations

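Genes beside the receptors were read as well, chosen after values were seen. Within 100 kb of a member 51 genes outside the set were tested by the same edgeR fit. With cGAMP 8 of them rose and 4 fell (15.7% and 7.84%, beside 11.6% and 11.8% of all genes). With 20 μM chlorquinaldol 15 rose and 13 fell (29.4% and 25.5%, beside 27.1% and 28.0%), and at 50 μM 20 rose and 20 fell (39.2% each, beside 32.2% and 34.7%). From 20 μM to 50 μM 16 were higher and 6 lower (31.4% and 11.8%, beside 19.0% each way). The shares against untreated cells are near those of all genes, and those between the doses are further from them. Near C5AR1 the helicase gene DHX34 averaged 55.0 CPM at 50 μM against 21.2 CPM in untreated cells (log2 change 1.37, SE 0.09), and the apoptosis gene BBC3 15.0 CPM against 8.15 CPM. Near TYROBP, NFKBID, an inhibitor of NF-κB, averaged 15.8 CPM at 50 μM against 5.43 CPM (log2 change 1.54, SE 0.13). Near CD14, APBB3 averaged 49.9 CPM at 50 μM against 14.6 CPM (log2 change 1.77, SE 0.12). Near FPR1, SIGLEC14, an activating receptor that also signals through TYROBP, rose with cGAMP to 23.2 CPM against 10.5 CPM (log2 change 1.14, SE 0.10, adjusted p = 8.45e-08) and fell at 50 μM to 5.81 CPM. Near LILRB1 the pseudogene LILRP1 fell at 50 μM to 0.222 CPM against 1.38 CPM in untreated cells (log2 change −2.59, SE 0.37), the direction seen for LILRA2 and LILRA1. Whether LILRP1 shares reads with LILR genes was not tested. ENSG00000269271, which overlaps LILRA2 on the same strand and may take part of its reads, fell to 0.114 CPM against 1.72 CPM.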
